A study of Mus musculus with 18 samples.

Results

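The immune cells of lactating mammary glands were examined in droplet single cell RNA-seq (10x Genomics, 3' tags) of 2 libraries from FVB/NJ mice at lactation day 10, named F11 and D6. The cells were selected by their own counts of unique molecular identifiers (UMIs, 1 per captured transcript). A cell was taken when it had 500 or more genes, under 20% mitochondrial UMIs, 3 or more UMIs in all of the leukocyte genes Ptprc, Laptm5, Tyrobp and Cd52, and fewer than 2 UMIs of the endothelial genes Pecam1, Cdh5 and Gpihbp1. By this rule 422 of 12092 lactation cells were immune cells, 49 in F11 and 373 in D6, out of 133710 cells that passed the quality limits in the 18 libraries of the series. Of the 422 cells, 399 were myeloid only (3 or more UMIs of Lyz2, Fcer1g and Tyrobp), 5 were lymphoid only (1 or more UMIs of Cd3e, Cd3d, Trbc2, Cd79a and Nkg7), 9 met both definitions and 9 met neither.

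The series followed the epithelium of the mouse mammary gland from the embryo to the adult and through pregnancy, lactation and involution. Per the study's methods, glands of several mice were pooled for each time point, although its figure legends give fewer mice for lactation than the methods do. Cells carrying CD45, CD31 or TER-119 were sorted away. For the FVB/N mice, those in lactation among them, the paper also describes a sort for epithelial cells with CD24 and high CD29. The cells described here are therefore those that came through a sort against leukocytes and for these markers. Their number reflects the sort as well as the gland. What part the sort had in their makeup and gene levels was not tested. The cells were compared with the other FVB/NJ libraries of stages with replicates (virgin adults of 10 weeks and glands at day 12.5 or day 18.5 of gestation). They were also compared with the single libraries of C57BL/6 and SWISS virgin adults of 10 weeks. Cells of F11 and D6 that had no UMI of the 4 leukocyte genes were a further comparator. The labels give no transgene and no treatment for any of these groups.

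Macrophages are abundant leukocytes of the mammary epithelium. Those inside the ducts and alveoli lie between the luminal and the basal layers, display antigen on MHC class II and engulf dying milk-producing cells, whereas those of the surrounding stroma carry scavenger receptors such as the mannose receptor Mrc1. Milk protein transcripts are so abundant in the secretory alveoli that they leak from broken cells and are captured with the RNA of every other cell.

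Milk transcripts were found in the immune cells too. The 8 milk genes (the caseins, Wap, Lalba and Glycam1) took 30.01% of the UMIs of the immune cells in F11 and 20.4% in D6, against 73.4% and 74.0% in the cells with no leukocyte UMI. In the median myeloid cell they took 28.8% in F11 and 5.32% in D6, where the highest cell reached 80.5%. All levels below are therefore UMIs per 1000000 UMIs outside these 8 genes (CPM), summed over the myeloid-only cells of a library. Every level is quoted for F11 and then for D6, with an exact 95% Poisson interval where precision matters. These intervals cover counting error only, and cells of 1 library are not replicates.

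The depth behind these sums was unequal. F11 contributed 46 myeloid cells with 94914 UMIs outside the milk genes, and D6 contributed 353 cells with 1110547, so that 1 UMI was worth 10.5 CPM in F11 and 0.900 CPM in D6. The median myeloid cell held 1973 UMIs and 768.5 genes in F11 and 2915 UMIs and 980 genes in D6. Only 49.1% of the barcodes of F11 and 68.3% of those of D6 passed the quality limits. The libraries had 134 cell barcodes in common; 13 of these were immune cells in 1 library and none was an immune cell in both.

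Immune cells made up 0.917% of the passing cells in F11 (49 of 5342, exact binomial 95% interval 0.679 to 1.21%) and 5.53% in D6 (373 of 6750, 4.99 to 6.10%). The intervals of the 2 libraries did not overlap, so the lactation libraries differed from each other by more than counting error. The 7 other FVB/NJ libraries of stages with replicates held 5 such cells among 61598, and 5 of them held 0. The mean share was 3.22 ± 3.26% (SD, n = 2) in lactation and 0.00916% in those 7 libraries, a difference of 3.21 percentage points with an exact two-sided permutation p of 0.0278, the smallest that 36 assignments of 9 libraries allow. The lactation libraries were singled out with this share already known, so the p is a description and gives no independent support. With F11 or with D6 left out the exact p was 0.125, the smallest possible with 8 assignments. The study calls the libraries of a stage biological replicates, while the labels do not tie them to animals. A difference in the sort and a difference in the gland cannot be told apart.

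**Figure D1:**
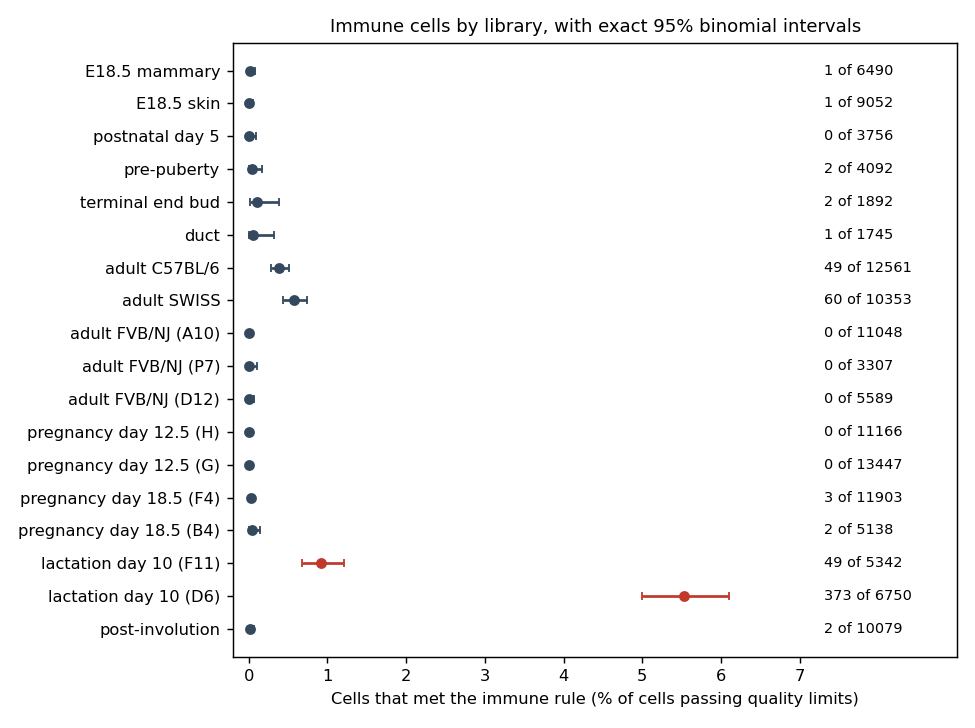
Share of passing cells that met the immune rule (percent, x axis) in each of the 18 libraries (y axis, lactation in red), with bars for exact binomial 95% intervals and counts at the right. D6 stands at 5.53% and F11 at 0.917%, and 14 of the 16 other libraries held at most 3 such cells.

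Among the other libraries, immune cells were numerous only in the C57BL/6 adult (49 of 12561 cells) and the SWISS adult (60 of 10353). The same classes were counted in them. Of the immune cells, 13 and 8 were myeloid only and 34 and 47 lymphoid only in the C57BL/6 and SWISS adults, whereas 46 of 49 in F11 and 353 of 373 in D6 were myeloid only. Of the other FVB/NJ libraries of stages with replicates, 5 held no immune cell, and those of day 18.5 of gestation (F4 and B4) held 3 and 2. In F4 and B4, 0 and 1 were myeloid only and 2 and 1 lymphoid only. The post-involution library, also of FVB/N mice per the paper, held 2 among 10079 cells, 1 lymphoid only and 1 of both classes. With so few cells no test of this composition over stages was made.

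The genes that chose the cells are given as a description. Just outside the limit, with 2 leukocyte UMIs, were 7 cells of F11 and 23 of D6, whose median Cd74 count was 1 and 2 UMIs and whose Cd74 level was 1908 and 2900 CPM. Just inside it, the 5 and 13 cells with exactly 3 leukocyte UMIs had a median of 30 and 9 Cd74 UMIs (18457 and 5391 CPM). The limit in D6 thus fell among cells with less Cd74 than those well inside it, where cells with 5 or more leukocyte UMIs reached 24113 CPM. The endothelial limit removed 8 cells of F11 and 93 of D6, which carried both Cdh5 (807 and 765 CPM), the adhesion molecule of endothelial junctions, and Cd74 (10761 and 5056 CPM). A further 18 and 38 cells fell short of 500 genes alone.

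Of the 5 markers of the label, 4 had served in the rules for members and classes, so their presence is no check of it. Over all members, Tyrobp, the signalling adaptor of myeloid receptors, was at 2883 and 2477 CPM and was present in 95.9% and 98.9% of cells. Cd52 was at 653 and 881 CPM. Ptprc, which encodes CD45, was at 161 and 336 CPM and gave a UMI in 24.5% of cells in F11 and 61.7% in D6. Lyz2, the lysozyme of macrophages and neutrophils, was at 1125 and 995 CPM. The marker that the rules did not use was Cd74, the invariant chain that escorts MHC class II molecules. It was at 29673 and 22804 CPM over all members and found in 98.0% and 97.1% of them. Cells of the same libraries with no leukocyte UMI held Cd74 at 25.5 and 28.1 CPM.

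Set against those cells, 166 of 2743 genes that averaged 50 CPM or more in either kind of cell were at least 4-fold higher in the myeloid cells of both libraries (6.05%). The rule used this contrast, so nothing is read from the count.

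Complement component C1q is made in tissues chiefly by macrophages, from 3 adjacent genes that encode its 3 chains. C1qa was at 5574 CPM in F11 (5109 to 6069) and 3830 in D6 (3715 to 3947). C1qb was at 3414 and 2273 CPM, and C1qc at 3614 and 2645 CPM. The 3 chains thus stood in nearly the same proportion in both libraries, each higher in F11 by 1.37 to 1.502 times. In the C57BL/6 and SWISS myeloid cells C1qa was at 1992 and 3526 CPM and C1qc at 929 and 1032 CPM. Of the 3, only C1qc was at least 2-fold higher in both lactation libraries than in both adults. A C1qa UMI was found in 44 of 46 myeloid cells of F11 and 345 of 353 of D6, and in 46.2% of the 13 C57BL/6 and 37.5% of the 8 SWISS myeloid cells, so most of the adult comparators lacked it.

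Because each of these chains was found in nearly every lactation myeloid cell, the 250 bases in front of 2 of the genes are shown (RefSeq, GRCm38.p6, minus strand, 5′ to 3′, C1qb at chr4:136886201-136886450 and C1qc at chr4:136892915-136893164), C1qa having no entry in the table. Capitals mark the letters GAGGAA, or TTCCTC where they lie on the other strand, which are the core bound by the myeloid factor PU.1.
C1qb upstream: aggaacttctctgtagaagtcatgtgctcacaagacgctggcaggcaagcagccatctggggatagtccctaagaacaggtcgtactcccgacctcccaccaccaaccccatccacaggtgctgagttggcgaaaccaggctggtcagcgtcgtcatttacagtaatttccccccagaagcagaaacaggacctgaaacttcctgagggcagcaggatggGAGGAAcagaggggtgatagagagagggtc
C1qc upstream: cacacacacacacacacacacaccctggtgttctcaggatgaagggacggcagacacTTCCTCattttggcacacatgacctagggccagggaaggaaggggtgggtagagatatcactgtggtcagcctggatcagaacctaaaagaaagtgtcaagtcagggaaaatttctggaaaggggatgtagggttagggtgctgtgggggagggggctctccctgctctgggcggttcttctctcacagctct
The match began 30 bases before the transcript start in C1qb and 193 bases before it in C1qc. The same 6 letters occurred on either strand in 7639 of 32851 promoters of this length (23.2%). Spi1, which encodes PU.1, was at 400 and 294 CPM in the myeloid cells.

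The genes of MHC class II presentation were high, most of the sum coming from 4 of them (Cd74, H2-Ab1, H2-Aa and Ctss). The 10 listed genes summed to 52627 and 46106 CPM, against 65.3 and 87.6 CPM in cells with no leukocyte UMI, and 32168 and 32025 CPM in the C57BL/6 and SWISS myeloid cells. Cd74 alone was at 30607 CPM in F11 (29504 to 31740) and 23670 in D6 (23385 to 23958). The chains of I-A followed, with H2-Ab1 at 10230 and 8912 CPM and H2-Aa at 8060 and 9153 CPM. Ctss, the protease that trims the invariant chain, was at 2223 and 2765 CPM. All of these lay above the adult values of 12461 and 12354 CPM for Cd74, 6070 and 4654 for H2-Ab1, 5633 and 6525 for H2-Aa, and 1328 and 1319 for Ctss, but by less than 2-fold in at least 1 pair of libraries.

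H2-Eb1, the beta chain of the class II molecule I-E, went the other way. It was at 242 CPM in F11 (154 to 364) and 276 in D6 (246 to 309), against 5330 in C57BL/6 (4725 to 5991) and 6261 in SWISS (5525 to 7069), so the groups did not overlap. Every lactation value was at least 16.5-fold lower than every adult value once 50 CPM had been added to each. Strain, stage, library and time of processing cannot be told apart here, since both adult comparators are of other strains and were processed together.

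Of the receptors that define macrophages, most but not all were found. Csf1r, the receptor for the growth factor that keeps macrophages alive, was at 211 and 320 CPM and Adgre1, which encodes F4/80, at 63.2 and 103 CPM. Their intervals overlapped those of the adult myeloid cells (Csf1r 228 and 336 CPM, Adgre1 75.9 and 120 CPM). Apoe, the lipid-carrying apolipoprotein, was at 16383 and 10291 CPM, against 503 and 705 CPM in the cells with no leukocyte UMI. In the C57BL/6 and SWISS myeloid cells it was at 7094 and 1295 CPM. Mertk, a receptor for dying cells, gave 0 UMIs in F11 and 1 UMI in D6 (0.900 CPM), against 3.13 and 4.20 CPM in the cells with no leukocyte UMI. In all, the 10 macrophage genes summed to 30059 and 20196 CPM, against 12461 and 8372 CPM in the C57BL/6 and SWISS adults. Most of each sum came from Apoe and the C1q genes, so the sums say little of the other genes.

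The macrophages of the ducts and of the stroma were compared by lists of their genes. The 10 genes listed for ductal macrophages summed to 2803 and 2867 CPM in lactation and to 645 and 1199 CPM in the C57BL/6 and SWISS adults. The 10 genes listed for scavenger-type resident macrophages summed to 52.7 and 122 CPM in lactation and to 1138 and 672 CPM in the adults. The sums of both lists were therefore apart in opposite directions, with no overlap between lactation and adult libraries.

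Across the 1680 genes that averaged 100 CPM or more in the lactation or in the adult libraries, 72 (4.29%) were at least 2-fold higher and 64 (3.81%) at least 2-fold lower in both lactation libraries than in both adults, with 50 CPM added. Of the 10 ductal genes, 8 reached that level and 5 were among the higher ones, and of the 10 scavenger genes, 4 reached it and 3 were among the lower ones. All of these 5 and 3 genes reached it only through the group in which they were high, so such counts, here and for the lists that follow, are a description and support no shift of a list. With 13 and 8 adult cells of other strains, and 1 library each, there is no test of this contrast. Per the paper, the C57BL/6 and SWISS adults were processed at the same time, and lactation is not named with them. They are thus not comparators from separate batches. The adult cells were also of mixed kinds: those of C57BL/6 carried 6620 CPM of the 8 migratory dendritic cell genes, of which 5785 CPM were Ccl5 alone, a gene that cytotoxic lymphocytes express too, and those of SWISS 2543 CPM of the 7 plasmacytoid dendritic cell genes, against at most 253 CPM of either list in lactation. What part this makeup has in the contrast was not tested.

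In the ductal list, Cx3cr1, the fractalkine receptor, was at 390 CPM in F11 (274 to 537) and 376 in D6 (341 to 414), against 37.9 and 120 CPM in the adults. Mmp12, the macrophage elastase, was at 348 and 484 CPM, against 75.9 CPM in C57BL/6 and 0 of 41686 UMIs in SWISS, which allows up to 72.0 CPM. Tmem119 was at 221 and 137 CPM, against 0 UMIs in C57BL/6, which allows up to 56.9 CPM, and 24.0 CPM in SWISS. Axl, a receptor for dying cells, was at 158 and 204 CPM, against 19.0 and 48.0 CPM, and Cadm1, an adhesion molecule, at 211 and 208 CPM, against the same adult values. F11 and D6 lay close together in all 5 genes, with every interval of the ratio of F11 to D6 spanning 1. Trem2, a lipid-sensing receptor, was at 221 and 142 CPM, against 0 and 72.0 CPM, short of 2-fold once 50 CPM had been added. Cd9 alone of the list did not lie above both adults, at 316 and 165 CPM, against 114 CPM in C57BL/6 and 408 CPM in SWISS. The cells with no leukocyte UMI held more Cd9, at 704 and 423 CPM.

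In the scavenger list, Mrc1 gave no UMI in F11, which allows up to 31.6 CPM, and 13.5 CPM in D6 (7.56 to 22.3), against 266 and 168 CPM in the adults. F13a1, the coagulation factor XIII A chain of tissue macrophages, gave 0 UMIs in F11 and 9.005 CPM in D6, against 360 and 96.0 CPM. Cbr2, a carbonyl reductase, gave 0 UMIs in F11 and 9.90 CPM in D6, against 94.8 and 144 CPM. For Folr2, the folate receptor of these macrophages, F11 gave 0 UMIs and D6 2.70 CPM, against 133 and 24.0 CPM, the latter 1 UMI. Not every gene of the list lay below both adults. Stab1 was at 21.1 and 36.0 CPM, against 0 UMIs in C57BL/6 and 72.0 CPM in SWISS. Cd209f had no UMI in SWISS and Timd4 none in C57BL/6, while D6 held 8.10 and 0.900 CPM of them. Of the 10 scavenger genes, 8 had no UMI in F11, where 1 UMI is worth 10.5 CPM, and none of the 10 was without a UMI in D6. The low levels in D6 rest on 353 cells and are below the adult intervals for Mrc1, F13a1 and Cbr2. They are not spread evenly, the 15 Mrc1 UMIs of D6 lying in 1.98% of its myeloid cells.

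**Figure D2:**
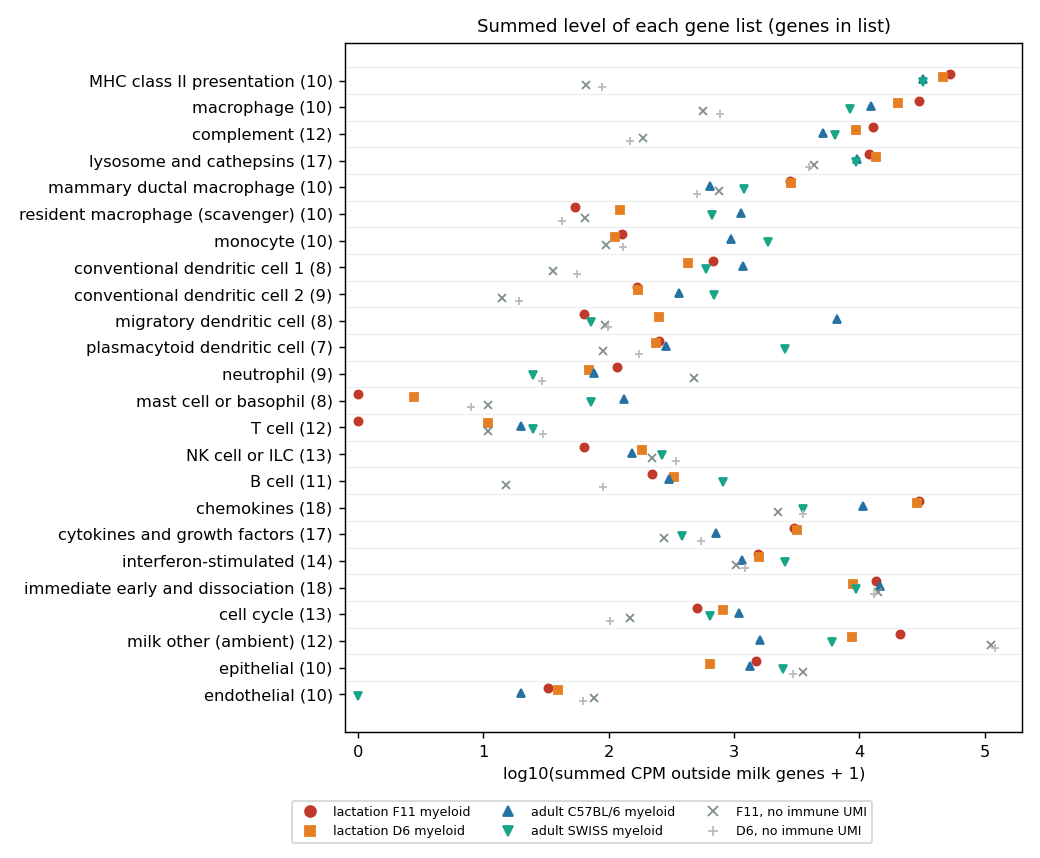
Summed level of gene lists (x axis, log10 of CPM outside the milk genes plus 1; y axis, the lists with their number of genes) in the myeloid cells of F11, D6 and the C57BL/6 and SWISS adults, and in cells of F11 and D6 with no leukocyte UMI, 1 symbol per library. The ductal list lies at 2803 and 2867 CPM in lactation against 645 and 1199 CPM in the adults, and the scavenger list at 52.7 and 122 CPM against 1138 and 672 CPM.

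Cd207, which encodes langerin, the lectin of Langerhans cells and of some other dendritic cells and macrophages, was present in the lactation myeloid cells. Its level was 379 CPM in F11 (266 to 525) and 1153 CPM in D6 (1091 to 1218), so that D6 was higher beyond counting error. The C57BL/6 myeloid cells had 0 UMIs and the SWISS ones 72.0 CPM. To compare cells of unequal depth, each was thinned to 1000 UMIs. A Cd207 UMI was then found in 17.4% of 46 cells in F11 (7.82 to 31.4%) and 54.7% of 351 cells in D6 (49.3 to 59.99%). Before thinning the shares were 26.1% and 72.5%. In the thinned cells with no leukocyte UMI the shares were 0.0229% and 0.406%. All 12 Cd207-positive cells of F11 and 255 of the 256 of D6 also held a C1qa UMI. Of the Cx3cr1-positive cells, 151 of 212 in D6 (71.2%) and 6 of 25 in F11 (24.0%) held Cd207, close to its share of all myeloid cells. This gene was taken up after its values had been seen.

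Chemokines reached 29701 and 28795 CPM over 18 genes, against 10603 and 3574 CPM in the C57BL/6 and SWISS adults. Of these 18 genes, 12 reached the level limit, and 5 were among the 72 higher ones (Ccl3, Ccl4, Cxcl1, Cxcl2 and Cxcl16) and Ccl6 was among the 64 lower ones. Ccl3, an attractant of monocytes and T cells, was at 3793 CPM in F11 (3411 to 4206) and 2821 in D6 (2723 to 2922), against 19.0 and 24.0 CPM in the adults, each a single UMI. Ccl4, its close relative, was at 10399 and 6410 CPM, against 266 and 480 CPM. Cxcl2, an attractant of neutrophils, was at 11210 and 12939 CPM, against 2409 and 1247 CPM. The cells with no leukocyte UMI held 8.51 and 8.36 CPM of Ccl3 and 29.2 and 21.4 CPM of Ccl4.

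Cxcl1 and Cxcl2 were different in this respect. Cxcl1 was at 2645 and 4365 CPM in the myeloid cells, against 171 and 216 CPM in the adults, but cells with no leukocyte UMI held 1244 and 1590 CPM. Those cells held 853 and 1646 CPM of Cxcl2. Ccl6, a chemokine of macrophages, was at 116 and 152 CPM in lactation and at 588 and 456 CPM in the adults.

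The inflammatory cytokines were present beside these chemokines. Of the 17 listed genes of cytokines and growth factors, 6 reached the level limit and 4 were among the higher ones (Il1a, Il1b, Il10 and Tnf). Il1a, Il10 and Tnf reached it only through lactation. Il1b, interleukin-1 beta, was at 1833 CPM in F11 (1571 to 2127) and 1729 in D6 (1652 to 1808), against 360 CPM in C57BL/6 and 96.0 in SWISS. Il1a was at 211 and 401 CPM, against 0 UMIs in both adults. Il10, an anti-inflammatory cytokine, was at 263 and 311 CPM, against 37.9 CPM and 0 UMIs. Tnf was at 211 and 268 CPM, against 0 UMIs and 48.0 CPM. All 4 were under 5 CPM in the cells with no leukocyte UMI of both libraries, Tnf being highest at 4.79 and 4.97 CPM.

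**Figure D3:**
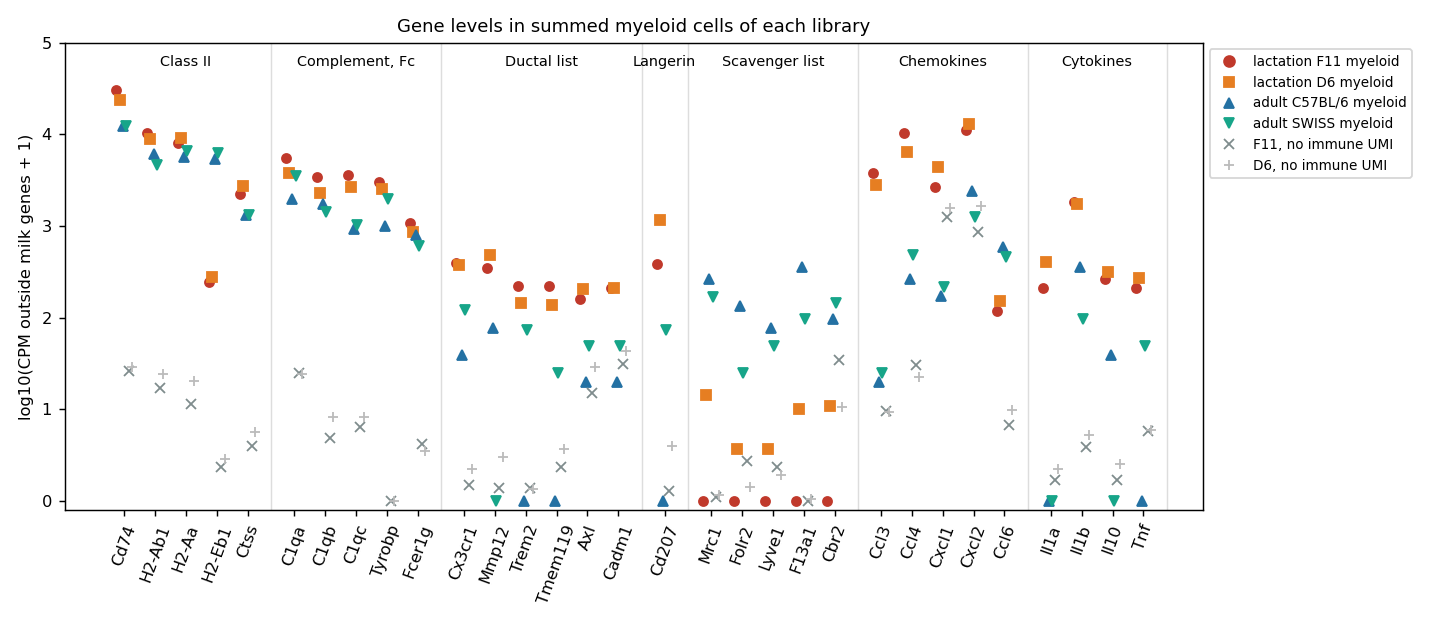
Level of single genes (y axis, log10 of CPM outside the milk genes plus 1) by gene (x axis), with 1 symbol for the myeloid cells of each library and grey symbols for cells with no leukocyte UMI. Cx3cr1, Mmp12, Ccl3, Ccl4 and Il1b lie higher in F11 and D6 than in the 2 adults, and H2-Eb1 and Mrc1 lie lower.

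Immediate early genes, which are induced within minutes of tissue dissociation, were read alongside. The 18 listed immediate early genes summed to 13465 and 8881 CPM in the lactation myeloid cells, 14510 and 9404 CPM in the adult ones and 13963 and 13076 CPM in the cells with no leukocyte UMI. Of these 18, 16 reached the level limit, 0 were among the higher genes and 1, Jund, was among the lower. The sums of the lactation and the adult myeloid cells overlapped. Their part in other results was not tested.

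Iron storage transcripts were also high. Ftl1, the ferritin light chain, was at 17247 and 13288 CPM, against 4742 and 4630 CPM in the adults and 5213 and 2826 CPM in the cells with no leukocyte UMI. Fth1, the heavy chain, was at 25402 and 20628 CPM, against 8004 and 11035 CPM in the adults, but F11 cells with no leukocyte UMI held 24457 CPM. Ferritin pseudogenes can share reads with Ftl1 and Fth1, so their levels are uncertain. Among the lysosomal genes, Lgmn, an endopeptidase of antigen processing, was at 811 and 1028 CPM, against 171 and 312 CPM in the adults.

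Of the 72 higher genes, 38 were at least 2-fold lower in the cells with no leukocyte UMI of both libraries than in the lower of the lactation myeloid values. The others include Fabp3, Scd1, Lao1 and Cidea of secretory and fat-synthesising cells, which those cells held at higher levels than the myeloid cells did, and the smooth muscle gene Tagln. Fabp3 was at 5194 and 930 CPM in the myeloid cells and at 18812 and 10723 CPM in the cells with no leukocyte UMI. The part of free RNA from those cells in these genes was not tested.

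The lower genes, apart from H2-Eb1, were led by Retnla, a resistin-like protein of alternatively activated macrophages. It was at 0 UMIs in F11 and 168 CPM in D6, against 4268 and 1703 CPM in the adults. Fn1, fibronectin, followed with 0 UMIs in F11 and 29.7 CPM in D6, against 550 and 600 CPM. The 10 monocyte genes, Fn1 among them, summed to 126 and 111 CPM, against 948 and 1871 CPM. Of these 10, 4 reached the level limit and Fn1 alone was among the lower genes. Fn1 was found in 15.4% of the C57BL/6 and 25% of the SWISS myeloid cells. Interferon-stimulated genes gave no separation, at 1559 and 1581 CPM against 1157 and 2567 CPM.

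Genes of other leukocytes were at unequal levels in the myeloid sums. The 8 genes of conventional dendritic cells of type 1 summed to 685 and 429 CPM, of which Cadm1, also in the ductal list, gave 211 and 208 CPM. Irf8 gave 421 and 143 CPM of this sum, and Xcr1 and Clec9a had no UMI in either library. The 11 B cell genes summed to 221 and 331 CPM, the 11 plasma cell genes to 137 and 164 CPM and the 13 NK cell or ILC genes to 63.2 and 182 CPM. The cells with no leukocyte UMI held 14.3 and 90.0 CPM of the B cell genes. They held more than the myeloid cells of the plasma cell genes (665 and 641 CPM) and of the NK cell or ILC genes (222 and 346 CPM). The 12 T cell genes were at 0 in F11 and 9.90 CPM in D6, several of them held at 0 by the definition of the myeloid class, and the 8 mast cell or basophil genes at 0 and 1.80 CPM. Neutrophil genes summed to 116 and 69.3 CPM, and the cells with no leukocyte UMI held 480 and 28.5 CPM. The 10 endothelial genes summed to 31.6 and 38.7 CPM, after the rule had bounded them. Genes of other tissues were not at low levels throughout. The 12 further genes of the milk-producing cells summed to 21082 and 8743 CPM in the myeloid cells, against 112528 and 120621 CPM in the cells with no leukocyte UMI, and the 9 adipocyte genes to 2107 and 1160 CPM, against 10379 and 14810 CPM. The 8 erythroid genes summed to 84.3 and 1220 CPM, and in D6 a single cell gave most of the Hbb-bs UMIs. The 10 epithelial genes summed to 1496 and 637 CPM, against 3575 and 2961 CPM in the cells with no leukocyte UMI. Of the members, 15 of 49 in F11 and 65 of 373 in D6 held 2 or more UMIs of Epcam, Krt8, Krt18, Krt14 and Krt5. The part of doublets and of free epithelial RNA was not tested, and no doublet caller was run.

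F11 and D6 resembled each other across genes but not in every group. Over the 1123 genes at 100 CPM or more on average, 86.9% were within 2-fold, with Pearson r = 0.881 of log2 CPM, a description across genes, which are not independent. The remainder were 72 genes higher in F11 and 75 higher in D6. Those higher in F11 were led by the serum amyloid genes Saa2 (906 and 0 CPM) and Saa1 (853 and 7.20 CPM), near-identical acute phase genes that can share reads and that F11 cells with no leukocyte UMI held at 6482 and 6603 CPM. The neutrophil gelatinase-associated lipocalin Lcn2 was at 811 and 113 CPM, and those cells held it at 7700 and 2167 CPM. Saa2, Saa1 and Lcn2 were thus at higher levels in the surrounding cells of F11 than in its myeloid cells. Other genes higher in F11 were not. Dusp2 was at 464 and 67.5 CPM and Irf8 at 421 and 143 CPM, while F11 cells with no leukocyte UMI held 2.15 and 0.782 CPM of these 2 genes.

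Those higher in D6 also included genes of low level in the surrounding cells. Tgfbi was at 21.1 CPM in F11 and 208 in D6, Ccr1, a chemokine receptor, at 21.1 and 201 CPM, and Gpr183, a receptor for oxysterols, at 73.8 and 310 CPM. The cells with no leukocyte UMI held under 3 CPM of each. Il7r, the interleukin-7 receptor chain, averaged under 100 CPM and so was not among the 75. It had 0 UMIs in F11 and 120 CPM in D6 (100 to 142). With 1 library each, and a different share of milk RNA, these differences have no replicate check.

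Variation from cell to cell was wider for Ccl4 than for C1qa. In D6 the myeloid cells held from 0 to 38 C1qa UMIs with a median of 12, and from 0 to 334 Ccl4 UMIs with a median of 4. In F11 the ranges were 0 to 27 with a median of 11, and 0 to 68 with a median of 18.5. The lower and upper quartiles of D6 were 7 and 16 UMIs for C1qa and 0 and 23 for Ccl4. Those of Cxcl2 were 20 and 49 around a median of 31, so the chemokines were not alike in this. After thinning to 1000 UMIs, Ccl4 was found in 84.8% of cells in F11 (71.1 to 93.7%) and 60.7% in D6 (55.4 to 65.8%), and Il1b in 71.7% and 59.3%. Most cells with Il1b also held Ccl4, at 33 of 36 Il1b-positive cells of F11 and 219 of 273 of D6. Of all myeloid cells, 40 of 46 and 257 of 353 held Ccl4.

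**Figure D4:**
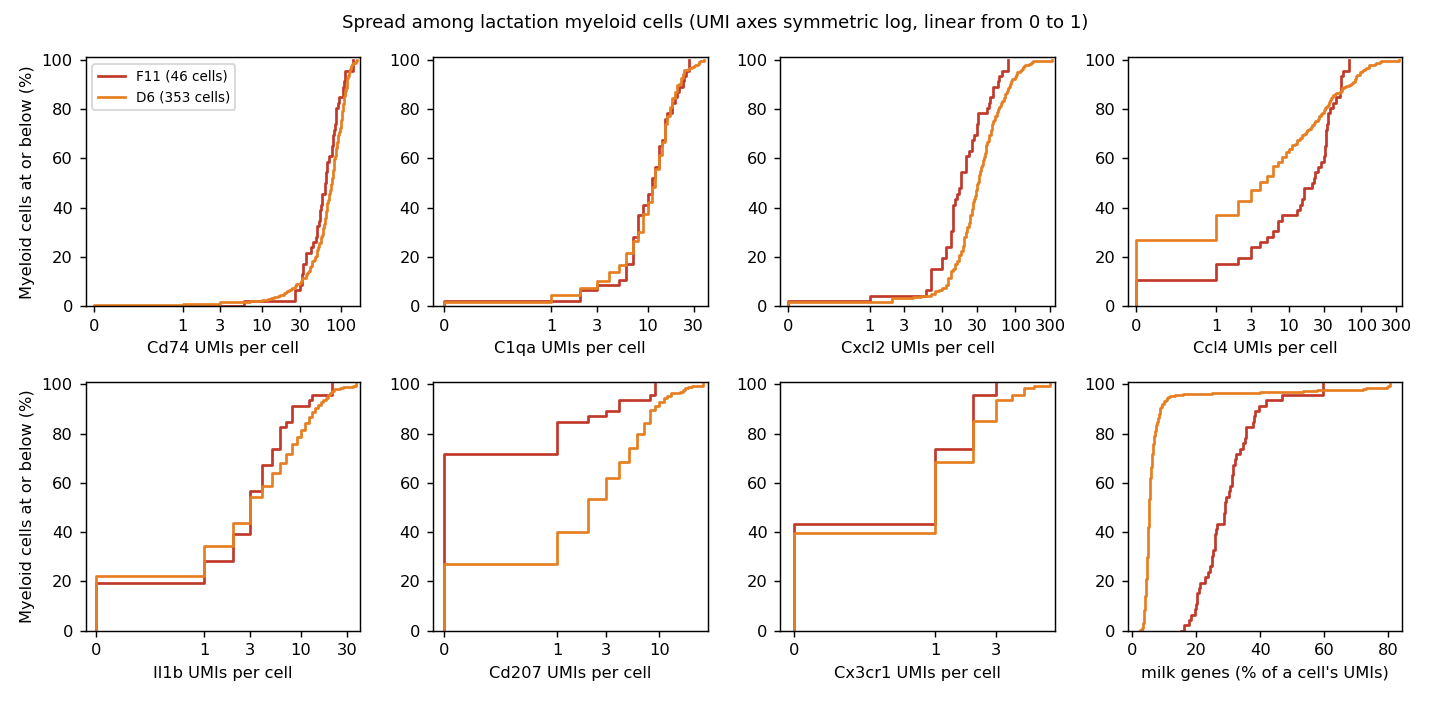
Cumulative share of myeloid cells (y axis, percent) at or below a number of UMIs of each of 7 genes or a milk percentage (x axes, UMIs linear from 0 to 1 and logarithmic above), for F11 (46 cells, red) and D6 (353 cells, orange). Ccl4 runs from 0 to 334 UMIs in D6 around a median of 4, whereas C1qa runs from 0 to 38 around a median of 12.

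A grouping of the 422 cells by expression, with milk, epithelial, red cell, fat cell and immunoglobulin genes left out, gave 5 clusters that largely followed the libraries. They are described by their leading genes and carry no name. The first held 139 cells, all of D6, and had haemoglobin genes at its head because of 1 cell, which gave 839 Hbb-bs UMIs. In it, Ccl4 was at 11575 CPM against 4247 CPM in the other members, Ccl3 at 5591 against 1556 CPM, and Il1b at 3148 against 1044 CPM. The second held 118 cells of D6 and 1 of F11 and was led by Igha, Jchain and Igkc, whose UMIs came from 1 cell, and by Gzma, whose UMIs came from 4, with Ccl4 at 1958 CPM and C1qa at 4649 CPM. The third held 37 of the 49 cells of F11 and 26 of D6, and milk genes took 56.9% of its UMIs. The fourth, 2 cells of F11 and 52 of D6, was led by histone, tubulin and mitotic genes such as Top2a, a topoisomerase, at 381 CPM. In the fifth, 43 of 47 cells held 2 or more epithelial UMIs and Acta2 and Krt14 of the myoepithelium led. Because the clusters were formed from these values, the differences are a description.

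Cells with cell cycle transcripts were counted with 7 genes. A total of 3 or more UMIs of them was found in 2 of 46 myeloid cells of F11 (4.35%, 0.531 to 14.8%) and 49 of 353 of D6 (13.9%, 10.4 to 17.9%). In the cells with no leukocyte UMI the shares were 0.540% and 0.419%. Thinned to 1000 UMIs, with 2 or more UMIs required, the shares were 2.17% and 9.69% of myeloid cells and 0.549% and 0.224% of the others. The intervals of F11 and D6 overlapped. The 13 listed cell cycle genes summed to 506 and 818 CPM in the lactation myeloid cells, against 1100 and 648 CPM in the C57BL/6 and SWISS ones. In D6, the cells so counted had Cx3cr1 at 495 CPM (403 to 602), against 350 CPM (313 to 391) in the rest, and Il1b at 1049 against 1880 CPM. Their C1qa (4131 and 3763 CPM) and Csf1r (287 and 327 CPM) were of like level. Cd74 was at 20249 CPM in them against 24432 CPM in the rest, and Cd207 at 841 CPM (719 to 977) against 1223 CPM (1152 to 1297). The cells so counted were also deeper, with a median of 4140 UMIs outside the milk genes against 2791.5 in the rest. Whether these cells were in division was not read from the counts alone.

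Lymphoid cells were few. All 14 cells with a UMI of the lymphoid genes, 5 lymphoid only and 9 that met both definitions, were in D6, 3.75% of its members. Of these, 8 held UMIs of T cell receptor genes other than Cd3e, and 4 held Gzma, a granzyme of cytotoxic cells, with 18, 9, 31 and 2 UMIs. Not all of the 8 were free of other cells' transcripts. A cell among them held 34 C1q and 100 Cd74 UMIs, and another held 10 epithelial UMIs with 73.3% milk UMIs. Of the 3 cells with 9 or more Gzma UMIs, all also had receptor UMIs and none had a C1q UMI. For 4 other cells the sole lymphoid gene was Cd3e. That gene gave a UMI in 307 of 5015 D6 cells with no leukocyte UMI (6.12%) and in 48 of 4815 of F11 (0.997%), whereas the other 5 receptor genes together did so in 30 (0.598%) and 24 (0.498%). Of these 4 cells, 3 held 1 Cd3e UMI each, and the other held 10 together with 42 epithelial UMIs. They are not counted as T cells here. The cell with Cd79a, at 2 UMIs, held 1336 Igkc, 588 Igha and 318 Jchain UMIs, the transcripts of a plasma cell that makes IgA.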

How the data were processed

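Single cell suspensions of mouse mammary glands were captured on a 10x Genomics Chromium and sequenced at the 3' end. The authors deposited UMI counts per gene and cell as matrices, 1 per library, of 31053 features. The submitters' processing notes name Cell Ranger 3.1.0, edgeR and the build mm10. No normalized values were used.

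Cells were kept at 500 or more genes and under 20% mitochondrial UMIs. Immune, myeloid and lymphoid cells were then chosen by UMI sums. Counts were summed per library and class and scaled per 1000000 UMIs outside 8 milk genes (CPM). Intervals are exact (Poisson, or Clopper-Pearson for shares) at 95%, and a count of 0 allows 3 UMIs. Cells were thinned to 1000 UMIs where shares of cells were compared. Clusters used 1000 variable genes, 15 principal components, 15 neighbours and a resolution of 0.5. Python 3.11.15, numpy 2.4.6, scipy 1.17.1, pandas 2.3.3 and scanpy 1.11.5 were used. The code of the selection was run on made-up cells with counts set at the limits. That checks the code and not whether the rule finds immune cells.

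The members and the gene lists were chosen with earlier results of these data known. Genes were named as members of the lists, at the highest level or as defining members, as markers of the rule and the label, or as the genes furthest apart between groups. Genes outside the lists, among them Cd207, Retnla, Saa2, Saa1, Tgfbi, Gpr183 and Spi1, were chosen after their values were seen.

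A quasi-likelihood test of myeloid and lymphoid genes between stages had been planned with edgeR. It was not run, because only 2 libraries, both of lactation, held 20 or more myeloid cells, and 0 FVB/NJ libraries held 20 or more lymphoid cells. The 2-fold contrast with the C57BL/6 and SWISS adults was added after seeing the data and has no test. No doublet caller was run. Leaving out cells with 2 or more epithelial UMIs, or above the study's own upper limits on genes and counts, took its place, and the latter removed no myeloid cell. Not every gene of the lists is reported by name here.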

Additional observations from a re-analysis of the deposited data

How the results depend on the processing

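The difference in immune share between lactation and the 7 other FVB/NJ libraries was 3.21 percentage points. It kept its direction in all 13 alternatives, a description only, because the lactation libraries were singled out with this share known. Its exact permutation p was 0.0278 with all 9 libraries, 0.0357 without any 1 of the 7 others (28 assignments) and 0.125 without F11 or D6, each the smallest possible. Over all settings that left out 1 library it ran from 0.908 points without D6 to 5.52 points without F11. The share of myeloid-only cells among myeloid-only and lymphoid-only cells, 99.3%, and the milk share of counts in immune cells, 25.2%, kept within the spread of the libraries in their 6 and 5 alternatives. That spread is the SD of F11 and D6, which leaving out either library cannot exceed, so those alternatives test nothing. Without cells with 2 or more epithelial UMIs the milk share was 30.1% in F11 but 9.96% in D6, against 20.4% in D6 with them. The contrast with the adult myeloid cells, and all its alternatives, were chosen after seeing the data. Its 72 higher and 64 lower genes became 89 and 116 with 20 CPM added in place of 50. Leaving out each of the 4 libraries in turn gave 114 to 146 higher and 94 to 284 lower genes, since fewer values then have to lie apart. Levels of 16 genes under 4 other choices of cells were 0.827 to 1.21 times those given, and with the milk genes kept in the counts 0.757 to 0.834 times. No paired analysis was possible because the labels give the libraries letters and no shared replicate numbers. All alternatives of the planned stage contrasts in myeloid and lymphoid cells (other normalization, other tool, no filter) were not run, because the contrasts themselves could not be fitted. Depth limits the adult levels most, where 3 UMIs equal 56.9 CPM in C57BL/6 and 72.0 CPM in SWISS, and then those of F11, where they equal 31.6 CPM. A gene without a UMI in those cells may still be present at up to these levels, and levels that rest on fewer UMIs than that are imprecise.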

Other observations

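Ighm, the heavy chain of IgM, was at 158 CPM in the myeloid cells of F11 (88.5 to 261) and 293 CPM in those of D6 (262 to 326), and at 228 and 96.0 CPM in the C57BL/6 and SWISS adults. Cd79a, its partner in the B cell receptor, was excluded from these cells by the rule. After thinning to 1000 UMIs, 19.6% of the myeloid cells of F11 and 25.1% of those of D6 held an Ighm UMI, against 0.102% of the thinned D6 cells with no leukocyte UMI.

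Cells with many immunoglobulin transcripts numbered 3. Besides the D6 cell with Cd79a, F11 held a member in neither class with 784 Igkc, 243 Igha and 124 Jchain UMIs, and D6 a cell that the immune rule did not take, with 1163, 205 and 183 UMIs.

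Of the Hbb-bs UMIs in D6 myeloid cells, 96.9% came from 1 cell. S100a8 was at 84.3 CPM in the myeloid cells of F11 and 3.60 CPM in those of D6, and the cells with no leukocyte UMI held more, at 397 and 24.0 CPM. Of the list for lipid-associated macrophages, with 12 genes, 11 reached the level limit and 2, Fabp4 and Cd36, were at least 2-fold higher in lactation than in the adult myeloid cells, where 4.29% of all genes tested were. Fabp4, a fatty acid carrier, was at 674 and 488 CPM in the myeloid cells and at 1294 and 2594 CPM in the cells with no leukocyte UMI. Cd36, a fatty acid receptor, was at 232 and 219 CPM and at 1490 and 1794 CPM in the same order.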
